A study of Mus musculus with 16 samples.

Results

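The effect of losing Rassf1a in mouse liver, averaged over 2 states of the Hippo gene Sav1, was described across the whole transcriptome. Total liver RNA of strain 129 mice had been hybridised to 16 Affymetrix whole-transcript arrays, 4 for each of 4 genotypes labelled wildtype, Rassf1a-/-, Sav1+/- and Rassf1a-/- Sav1+/-. The averaged effect is the mean of the Rassf1a-/- and Rassf1a-/- Sav1+/- genotype means (8 arrays, called here without Rassf1a) minus the mean of the wildtype and Sav1+/- genotype means (8 arrays, called here with Rassf1a). All 16 arrays of the series entered it. It was computed for every gene with a probe set that names exactly 1 gene and rises above a brightness filter, which were 13152 genes of the 19939 that such probe sets name on an array of 35556 probe sets. The labels do not say how the deleted alleles were made, and they give no age, sex, feeding state or hour of collection. Nor do they state that the 4 samples of a genotype came from separate animals, so the p-values cover the spread among these samples.

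RASSF1A is the long isoform of the Rassf1 gene, a scaffold protein with a Ras-association domain that binds microtubules and the Hippo kinases MST1 and MST2, and its promoter is silenced by methylation in many human cancers, including liver cancer. SAV1 is the adaptor that holds those kinases on the next kinases of the Hippo cascade, which restrains the growth-promoting coactivator YAP in liver. The study's title names liver tumours, the kinase Tbk1 and beta tubulin expression as its subjects. The liver also runs a circadian clock, in which BMAL1 (gene Arntl) and CLOCK bind E-box sequences and switch on their own repressors, the period, cryptochrome, REV-ERB and CIART genes, together with a large set of metabolic output genes. Activator and repressor transcripts of this loop peak at opposite times of day.

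In the livers without Rassf1a, 231 genes were higher and 62 were lower (limma, Benjamini-Hochberg adjusted p under 0.05 over all 13152 genes). These 293 genes are 2.23% of those tested, 1.76% higher and 0.471% lower. After quantile normalization the counts were 230 higher and 115 lower, and positive differences made up 49.1% of all genes in place of 55.1%. Among the genes with the largest decreases were the deubiquitinase Usp2, the clock repressor Ciart, the clock output factor Dbp and the period gene Per3. Among those with the largest increases were the clock activator Arntl, the xenobiotic cytochrome Cyp2b10, Gask1a, the beta tubulin Tubb2a and the choline kinase Chka. Rassf1 and Tbk1 transcripts and the genes of the Hippo cascade were not among those that passed.

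Most of the differences were small. Those of the called higher genes ran from 0.31 to 3.19 on the log2 scale with a median of 0.56, and 29 exceeded 1, which is a 2-fold difference. The called lower genes ran from 0.35 to 3.90 in size with a median of 0.71, and 17 exceeded 1. Over all genes tested the median difference was 0.026, and 55.1% of genes had a positive difference. In 92 of the 293 genes, 69 higher and 23 lower, the 8 arrays without Rassf1a all lay beyond the 8 arrays with it. Such separation occurred in 102 of the 13152 genes, or 0.776% (0.601% higher, 0.175% lower). For 17 of the called higher genes the mean with Rassf1a lay below the lowest brightness at which any array's filter was set, 7.16, so that these genes passed the filter mainly through the arrays without Rassf1a. The same held for 4 called lower genes in the opposite sense. For such genes named below, a fold is given as a lower bound. Each array of the dim state was set to its own filter level where its signal was lower.

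**Figure D1:**
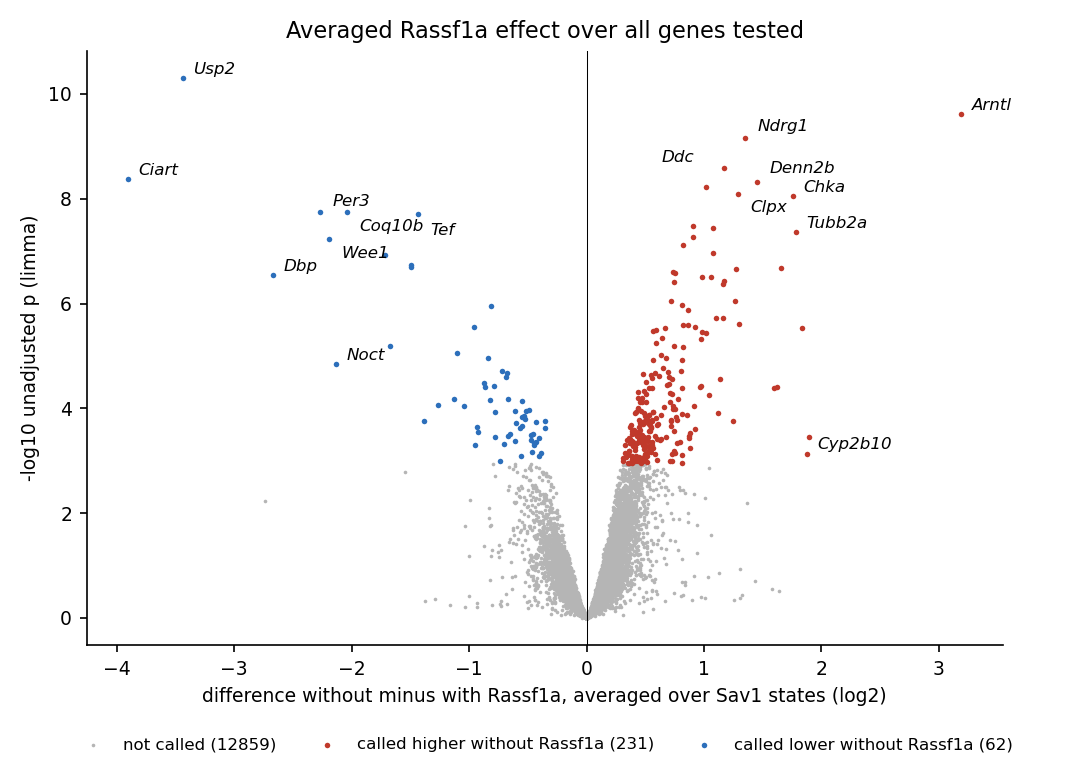
Averaged difference (x axis, log2, without minus with Rassf1a) against -log10 of the unadjusted limma p (y axis) for 13152 genes, with genes called at an adjusted p under 0.05 in red (231 higher) and blue (62 lower). Usp2, Ciart, Arntl and Ndrg1 stand at the top, and the called higher genes are more numerous but mostly closer to 0.

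The 2 deleted genes were checked first. Sav1, the target of the other deletion, had a mean log2 signal of 8.53 ± 0.11 in wildtype and 8.61 ± 0.14 in Rassf1a-/- samples (SD, n = 4 each). The mean was 7.64 ± 0.37 for the Sav1+/- genotype and 7.65 ± 0.27 when Rassf1a was lost too (SD, n = 4 each). Its averaged Sav1 effect was -0.93 (SE 0.12, adjusted p = 0.0113). Its averaged Rassf1a effect was 0.05 (SE 0.12, adjusted p = 0.882). Rassf1, the targeted gene itself, ranged from 6.94 to 7.71 without Rassf1a (median 7.45) and from 6.99 to 8.14 with it (median 7.49). The ranges overlapped, and the difference was -0.10 (SE 0.14, adjusted p = 0.771). The files name the probe set by the gene and do not place it relative to the deleted part, so Rassf1 does not check the Rassf1a labels. Levels of Rassf1 were near the brightness limit in every genotype.

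Facts of the arrays that bear on every comparison are these. Array medians lay between 7.2 and 7.51, and arrays of the same genotype correlated at a median r of 0.956 across all probe sets, against 0.954 for arrays of different genotypes. The mean of the Y-linked genes Eif2s3y, Kdm5d and Uty was high on 5 arrays, 3 of the 8 without Rassf1a and 2 of the 8 with it, where Xist was low. They were replicate 2 of Rassf1a-/-, replicates 1 and 2 of Rassf1a-/- Sav1+/- and replicates 3 and 4 of Sav1+/-. Arrays of high and of low Y-linked signal occurred together in 3 genotypes, which therefore hold samples of more than 1 animal. The difference in that mean was 0.788, with an exact permutation p of 0.565 (two-sided, 4900 arrangements within Sav1 states, smallest possible p 0.000408). Among 18 tested male-biased liver genes the median difference was 0.55 and among 12 female-biased genes -0.396, and none passed in limma, with or without adjustment. Without those 5 arrays 80 genes were called in place of 293, and 47 of the 82 called genes named here were among them. All 293 genes kept their direction in this fit of the remaining 11 arrays, called the 11-array fit in what follows. The differences of the 293 genes were as large there (median ratio 1.03) and their standard errors larger (median ratio 1.35). When all 16 arrays were fitted with that Y-linked mean as covariate, 356 genes were called, 278 of them among the 293, and again all 293 kept their direction. None of the 10 cell-type lists held a called member in limma's fit (endothelial markers had 3 and stellate cell markers 1 at an unadjusted p under 0.05, the other lists 0): hepatocyte markers averaged 13.2 to 13.48 without Rassf1a and 13.1 to 13.45 with it, and Kupffer cell markers 9.27 to 10.66 and 9.53 to 10.98. In whole liver, a change in the number of cells of a type and a change of RNA per cell cannot be told apart.

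A summary of clock genes separated the arrays by Rassf1a state. A clock score was formed for each array as the mean of Arntl, Clock and Nfil3 minus the mean of Dbp, Tef, Per1, Per2, Per3, Nr1d1, Nr1d2 and Ciart. It lay between -2.72 and -1.47 on the arrays with Rassf1a (median -2.18) and between -0.07 and 2.15 on those without it (median 1.53). No array of either state entered the range of the other. The genes of the score were chosen with earlier results of these data known, so this separation is a description and not a test. Arrays 1 and 4 of Rassf1a-/- Sav1+/-, at 0.39 and -0.07, were the lowest of the state without Rassf1a, and the other 6 lay above 1.4. The score separates the same 8 arrays as the genotype does, and with no hour of collection in the labels, a difference in clock phase at collection and an effect of Rassf1a on these genes cannot be told apart. With the score as a covariate, limma called 0 genes (smallest adjusted p = 0.999, 330 genes at an unadjusted p under 0.05), and the standard errors of the 293 genes were a median of 3.18 times as large. Their differences were a median of 0.528 times as large, and 257 of the 293 kept their direction. Genes outside the score varied in that fit. Rnf213 differed by -1.71, beside -1.49 without the covariate, while Wee1 (0.26) and Slc30a10 (-0.102) turned direction. Ciart differed by -0.23 and Arntl by 0.88, but both are members of the score, so their smaller values are partly built in.

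**Figure D2:**
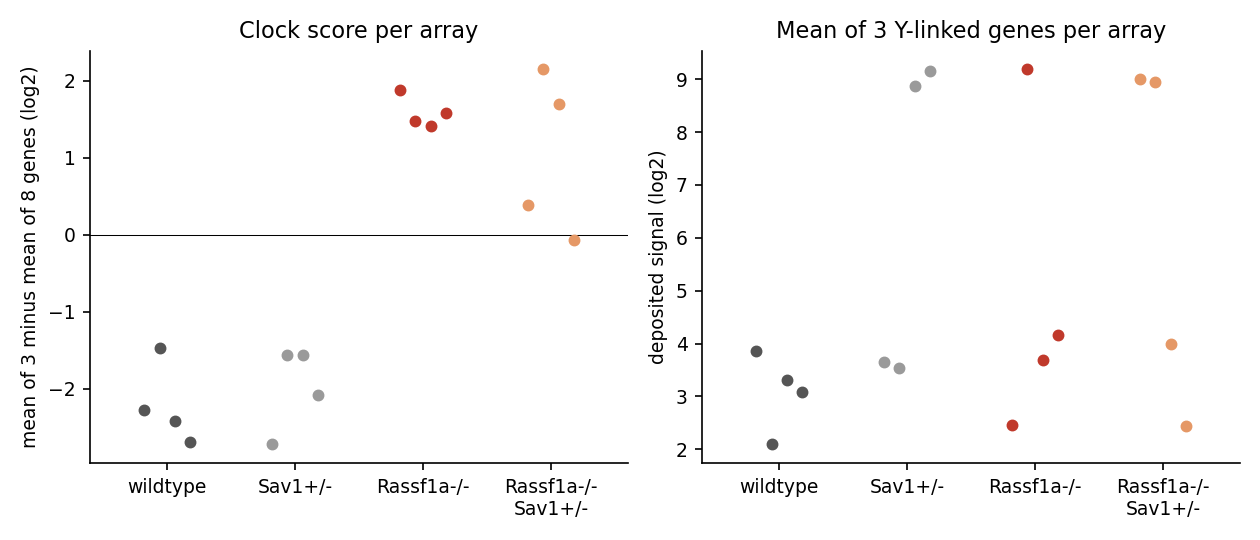
Clock score of each array (left, log2 difference of means) and mean signal of 3 Y-linked genes (right, log2) by genotype, 1 point per array. The clock score separates the 8 arrays without Rassf1a from the 8 with it, while high Y-linked signal occurs on 5 arrays of 3 genotypes.

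Of 3 tested activators of the clock, 2 were called higher and none lower, with a median difference of 1.02 beside 0.026 for all genes. Over all genes, 1.76% were called higher and 0.471% lower. Members of the clock lists were chosen with earlier results of these data known, so their counts are descriptions and not tests. Arntl, which encodes BMAL1, had log2 signals of 9.34 to 10.25 without Rassf1a (median 10) and of 5.77 to 7.80 with it (median 6.58). Both genotypes without Rassf1a lay high, at means of 10.08 and 9.72, and both with it lay at 6.71, below the filter level. The difference was 3.19 (SE 0.24, adjusted p = 1.6e-06), which is at least 5.57-fold higher when the arrays with Rassf1a are set to their filter levels. Clock, its partner, ran from 10.58 to 11.20 without Rassf1a (median 10.95) and from 9.36 to 10.55 with it (median 9.71). The states did not overlap, and the difference was 1.01 (SE 0.15, 2.02-fold, adjusted p = 0.000969). The nuclear receptor Rora, which activates Arntl, differed by 0.26 (SE 0.14, adjusted p = 0.394). Npas2 was not tested here.

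Of 11 tested repressors of the clock, 6 were called lower and none higher, beside 0.471% and 1.76% over all genes. Their median was -0.67, and 4 of the 11 differences were positive. Ciart, a repressor that binds the BMAL1 complex, had signals of 4.84 to 8.08 without Rassf1a (median 6.08) and of 9.34 to 10.50 with it (median 9.94). Array 4 of Rassf1a-/- Sav1+/- gave the 8.08, still below every array with Rassf1a. The difference was -3.90 (SE 0.36, adjusted p = 1.04e-05). The median without Rassf1a lies below the filter levels, and against those levels Ciart was at least 5.93-fold lower. Per3 ran from 6.83 to 8.84 without Rassf1a (median 7.18) and from 9.10 to 10.39 with it (median 9.68), a difference of -2.27 (SE 0.23, adjusted p = 2.12e-05). Per2 and Per1, the period genes that carry negative feedback, differed by -1.71 (SE 0.20, adjusted p = 7.77e-05) and -1.67 (SE 0.26, adjusted p = 0.00153), each with no overlap between the states. Bhlhe40, a helix-loop-helix repressor that competes for E-boxes, differed by -0.82 (SE 0.16, adjusted p = 0.009). Its arrays ended at 10.66 without Rassf1a and began at 10.72 with it.

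The REV-ERB receptors, which repress Arntl, differed from each other. Nr1d2 (REV-ERB beta) differed by -0.67 (SE 0.13, adjusted p = 0.00876). Nr1d1 (REV-ERB alpha) ran from 11.32 to 12.14 without Rassf1a and from 10.82 to 12.05 with it, and its difference of 0.40 (SE 0.14, adjusted p = 0.136) did not pass. The cryptochrome Cry2 differed by -0.21 (SE 0.12, adjusted p = 0.423). Cry1 and Bhlhe41 were too dim on these arrays to be tested. In the 11-array fit, Bhlhe40 (-0.63, adjusted p = 0.153) and Nr1d2 (-0.71, adjusted p = 0.113) were not called.

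Of 4 output factors of the clock, 2 were called lower and 1 higher, beside 0.471% and 1.76% over all genes. Their median was -0.90. The PAR bZIP factors bind D-boxes and drive detoxification genes, and Nfil3 represses the same sites. Dbp had signals of 7.42 to 10.26 without Rassf1a (median 8.08) and of 10.54 to 11.70 with it (median 11.29). Arrays 1 and 4 of Rassf1a-/- Sav1+/- stood near 10, between the other 6 and the arrays with Rassf1a. The difference was -2.67 (SE 0.33, 6.36-fold lower, adjusted p = 0.000139). Tef ran from 9.24 to 10.34 and from 10.65 to 11.54 and differed by -1.44 (SE 0.14, adjusted p = 2.12e-05). Hlf, the third PAR factor, differed by -0.36 (SE 0.11, adjusted p = 0.101), which did not pass. Nfil3 was higher, by 0.82 (SE 0.20, adjusted p = 0.0389), with overlapping arrays (8.47 to 10.03 without and 7.69 to 8.89 with Rassf1a), and it was called in 5 of the 16 fits that each left out 1 array and not in the 11-array fit.

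Of 14 tested rhythmic liver transcripts outside the core loop, 9 were called lower and none higher, beside 0.471% and 1.76% over all genes. Their median was -0.75. This list too was chosen with earlier results of these data known, so its count is a description and not a test. Usp2, a deubiquitinase with a strong daily rhythm in liver, had signals of 7.08 to 9.38 without Rassf1a (median 7.60) and of 10.65 to 11.78 with it (median 11.17). All but 1 of its arrays without Rassf1a lay under 8, and array 4 of Rassf1a-/- Sav1+/- at 9.38 stood apart from them. The difference was -3.44 (SE 0.23, 10.8-fold lower), with the smallest adjusted p of all genes (6.48e-07). Wee1, a kinase that delays mitotic entry and an E-box target of the clock, ran from 5.97 to 7.96 and from 8.50 to 10.58 and differed by -2.19 (SE 0.24, adjusted p = 4.58e-05). Noct, a phosphatase of NADP(H) known as nocturnin, differed by -2.14 (SE 0.35, adjusted p = 0.00297), and all of its arrays without Rassf1a (6.27 to 8.96) lay below those with it (9.45 to 10.67).

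Further rhythmic outputs were Coq10b, Thrsp, Alas1, Nampt, Herpud1 and Tspan4. Nampt, the rate-limiting enzyme of NAD salvage, differed by -0.95 (SE 0.14, adjusted p = 0.000843). Its ranges overlapped between 10.14 and 10.15. Herpud1, a component of endoplasmic reticulum degradation, differed by -0.55 (SE 0.11, adjusted p = 0.00911) and the tetraspanin Tspan4 by -0.52 (SE 0.10, adjusted p = 0.0123). Neither was called in the 11-array fit (adjusted p = 0.0693 and 0.0848). Across the 4 clock lists together, 20 of 32 tested genes were called, 3 higher and 17 lower, beside 2.23% called over all genes.

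**Figure D3:**
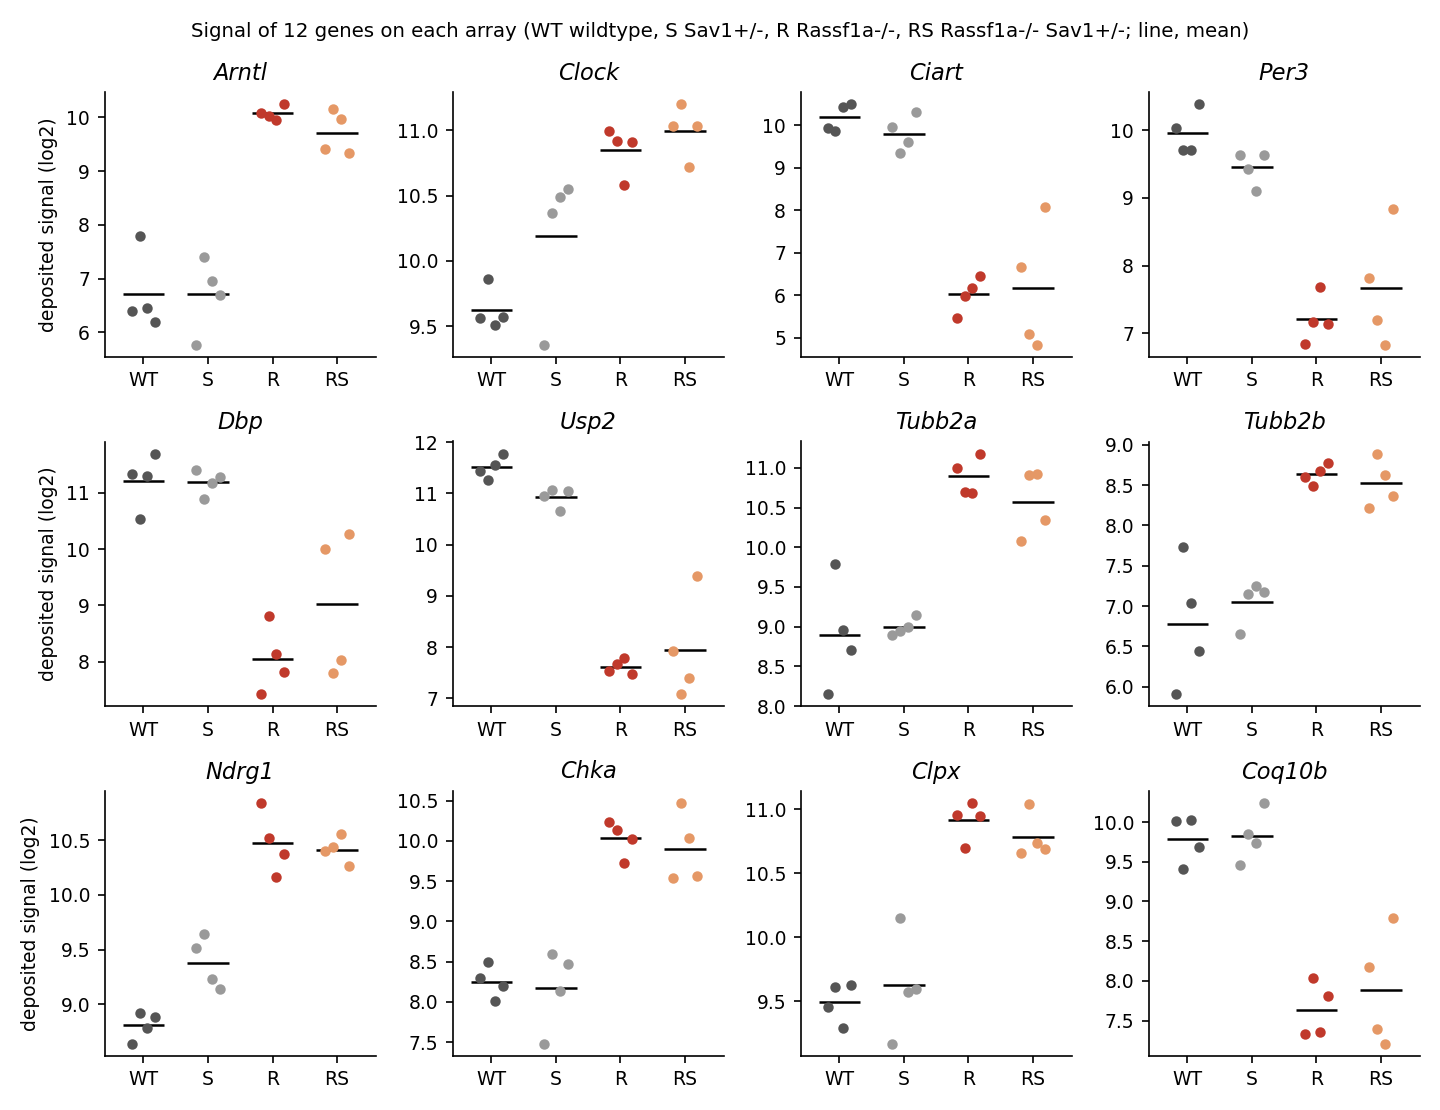
Log2 signal (y axis) of 12 genes on each array by genotype (x axis, 4 points each, line at the genotype mean). Arntl, Clock, the tubulins, Ndrg1, Chka and Clpx are higher on the 8 arrays without Rassf1a and Ciart, Per3, Dbp, Usp2 and Coq10b lower, with no overlap in any of the 12 genes.

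Promoter sequences show which called genes carry clock motifs close to the start of transcription. RefSeq promoters (assembly GRCm38.p6) from 250 bases before to 50 after each listed start were matched to 10397 tested genes and 251 of the 293 called genes, and both strands were searched for 6 motifs. The E-box CACGTG was present for 14 of 52 called lower genes (26.9%), for 22 of 199 called higher genes (11.1%) and for 11.3% of all tested genes with a promoter. The D-box TTANGTAA, which the PAR bZIP factors and Nfil3 bind, was present for 7.69%, 1.01% and 2.07% in the same order. The variant CACGTT, counted separately from the E-box, was present for 7.69%, 4.52% and 6.19%. The ROR response element, bound by the REV-ERB and ROR receptors, was found for none of the lower genes, for 1.01% of the higher genes and for 0.269% of all. As general promoter motifs, CCAAT was present for 51.9%, 51.3% and 41.6% and TATAAA for 13.5%, 11.6% and 10.1%. Called lower genes had a mean of 1.38 listed starts and all genes 1.27, and these shares are descriptions without a test. A match is a run of letters and not a measured binding site.

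The 250 bases before the start are printed for 4 called lower genes with motif matches, 5′ to 3′ on the coding strand, with E-boxes and D-boxes in capitals. They are Ciart (chr3:95882229-95882478, minus strand), Per3 (chr4:151044666-151044915, minus strand), Coq10b (chr1:55052520-55052769, plus strand) and Tef (chr15:81802423-81802672, plus strand, the first of its listed starts).
Ciart: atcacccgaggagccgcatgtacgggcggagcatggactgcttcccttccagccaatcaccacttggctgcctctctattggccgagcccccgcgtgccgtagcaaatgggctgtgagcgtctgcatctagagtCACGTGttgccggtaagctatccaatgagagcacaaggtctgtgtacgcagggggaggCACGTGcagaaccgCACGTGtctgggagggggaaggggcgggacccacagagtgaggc
Per3: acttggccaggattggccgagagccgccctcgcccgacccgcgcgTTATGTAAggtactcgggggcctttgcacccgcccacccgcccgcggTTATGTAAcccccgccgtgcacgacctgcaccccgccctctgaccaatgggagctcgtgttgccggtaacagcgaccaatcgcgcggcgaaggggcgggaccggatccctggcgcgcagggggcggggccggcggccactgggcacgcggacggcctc
Coq10b: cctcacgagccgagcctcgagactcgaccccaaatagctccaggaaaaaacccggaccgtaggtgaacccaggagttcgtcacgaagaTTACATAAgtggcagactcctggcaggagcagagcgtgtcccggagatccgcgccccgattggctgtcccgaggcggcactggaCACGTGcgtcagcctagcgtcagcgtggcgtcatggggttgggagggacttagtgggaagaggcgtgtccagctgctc
Tef: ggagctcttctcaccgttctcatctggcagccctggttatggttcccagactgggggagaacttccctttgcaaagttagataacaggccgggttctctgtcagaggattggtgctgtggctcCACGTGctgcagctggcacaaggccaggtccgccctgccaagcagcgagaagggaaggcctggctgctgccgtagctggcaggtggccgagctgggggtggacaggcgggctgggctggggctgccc

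Ciart held 3 E-boxes, starting 116, 58 and 44 bases before the start. Per3 held 2 copies of the same D-box, 205 and 158 bases before it. Coq10b, which encodes a coenzyme Q binding protein of mitochondria and differed by -2.04 (SE 0.21, adjusted p = 2.12e-05), held a D-box at 162 bases and an E-box at 78. Tef held an E-box at 127 bases before this start. For Usp2, Dbp and Arntl no match to the E-box, CACGTT, D-box or ROR motif lay in the 250 bases before a listed start. Among called higher genes, Clpx had CACGTT 101 bases before its start, and Ppp1r3c had an E-box at 104 and CACGTT at 189.

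Beta tubulins, the subject of the study's title, were higher. Beta tubulins form microtubule dimers with alpha tubulins, and their messages are degraded when free dimers are abundant. All 5 tested members were called higher, beside 1.76% over all genes, with a median difference of 0.86. Tubb2b passed the brightness filter mainly through the arrays without Rassf1a, so the number tested depends in part on the outcome. Tubb2a had signals of 10.08 to 11.18 without Rassf1a (median 10.80) and of 8.15 to 9.79 with it (median 8.95). The wildtype array at 9.79 was the highest with Rassf1a and stayed below all arrays without it. The difference was 1.78 (SE 0.19, 3.43-fold, adjusted p = 3.81e-05). Tubb2b, its close paralogue, ran from 8.22 to 8.89 without Rassf1a and from 5.91 to 7.73 with it and differed by 1.66 (SE 0.20, adjusted p = 0.000121). Its mean with Rassf1a, 6.92, was below the filter levels, against which it was at least 2.26-fold higher. How far the probe sets of such similar genes share signal was not tested.

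Other beta tubulins differed less. Tubb1, the platelet form, differed by 0.86 (SE 0.12, adjusted p = 0.000465) with no overlap (8.88 to 9.26 without, 7.75 to 8.51 with Rassf1a). Tubb5, the most widely expressed form, differed by 0.65 (SE 0.10, 1.56-fold, adjusted p = 0.00118), also with no overlap (11.15 to 11.56 against 10.51 to 11.02). Tubb6 differed by 0.55 (SE 0.13, adjusted p = 0.0267), with overlapping arrays, and was called in 10 of 16 fits that left out 1 array. In the 11-array fit 3 beta tubulins were called, and Tubb5 (0.57, adjusted p = 0.0954) and Tubb6 (0.62, adjusted p = 0.157) were not. Tubb3 and Tubb4a were too dim to be tested and Tubb4b had no probe set naming only it.

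Tubulins of other classes showed smaller differences. Of 8 tested alpha, gamma, delta and epsilon tubulins, 1 was called higher, all 8 differences were positive and the median was 0.14. Tuba4a differed by 0.54 (SE 0.12, adjusted p = 0.0205; called in 15 of 16 fits that left out 1 array), while Tuba1a at 0.19 (SE 0.09, adjusted p = 0.292) did not pass. None of 21 tested tubulin folding and autoregulation genes was called (median 0.064, largest 0.28, limma, 2 at an unadjusted p under 0.05). Of 15 microtubule-associated proteins, 1 was called higher: Map1s, a binding partner of RASSF1A on microtubules, at 0.51 (SE 0.09, adjusted p = 0.0073), from a level near the filter (7.13 to 7.55 without and 6.58 to 7.16 with Rassf1a). Its mean with Rassf1a, 6.83, was below the filter levels. Against those levels its difference was -0.01 (1.0-fold), so no increase above them was measured. In the 11-array fit neither Tuba4a nor Map1s was called (adjusted p = 0.15 and 0.138). Among 22 actin cytoskeleton genes, Eps8l2, an actin bundling protein of the EPS8 family, was the called member, at 0.92 (SE 0.20, adjusted p = 0.019).

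**Figure D4:**
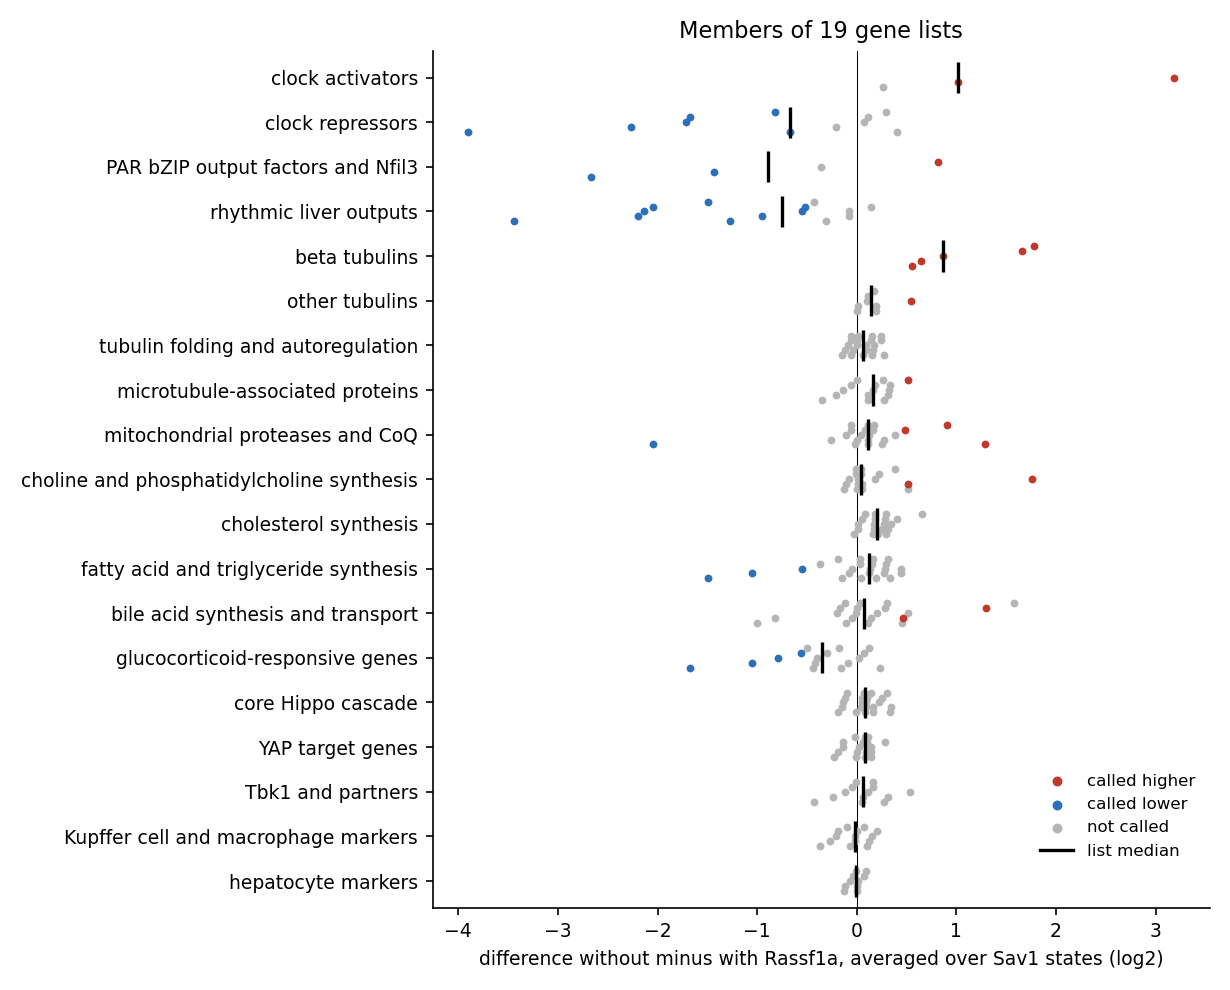
Averaged difference (x axis, log2) of every tested member of 19 gene lists, with called members in red (higher) or blue (lower) and a bar at each list's median. Clock lists and beta tubulins spread away from 0, and the Hippo, YAP, Tbk1, hepatocyte and Kupffer cell lists lie around it with no called member.

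Of 21 tested mitochondrial protease and coenzyme Q genes, 3 were called higher and 1 lower, with a median of 0.11. Clpx, the unfoldase of the mitochondrial matrix protease and an activator of the haem enzyme ALAS, had signals of 10.66 to 11.05 without Rassf1a (median 10.85) and of 9.17 to 10.15 with it (median 9.59). The states did not overlap, and the difference was 1.29 (SE 0.12, 2.44-fold, adjusted p = 1.31e-05). Coq8a, a kinase-like protein needed for coenzyme Q synthesis, differed by 0.91 (SE 0.10, adjusted p = 4.44e-05), with 12.01 to 12.52 without and 11.16 to 11.78 with Rassf1a. Pdss2, which makes the side chain of coenzyme Q, differed by 0.49 (SE 0.12, adjusted p = 0.0332) and was called in 7 of 16 fits that left out 1 array. Pdss2 was not called in the 11-array fit (adjusted p = 0.162). Coq10b was the called lower member. Its arrays ran from 7.21 to 8.79 without Rassf1a and from 9.41 to 10.24 with it.

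Haem synthesis had 1 called member in each direction among 15, Clpx and Alas1, and a median of 0.039. Alas1, the rate-limiting enzyme of haem synthesis, ran from 9.26 to 12.15 without Rassf1a (median 11.41) and from 12 to 13.03 with it (median 12.53). Its averaged difference was -1.27 (SE 0.25, adjusted p = 0.0107). It was -2.11 with 2 Sav1 copies and -0.42 with 1, and the test of that difference gave an adjusted p of 0.343. The unadjusted p was 0.00333, and the 95% interval ran from 0.65 to 2.74.

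The lipid lists held 0 to 3 called members each, beside 2.23% called over all genes tested. Thrsp, a thyroid hormone responsive regulator of lipogenesis, had signals of 10.35 to 11.46 without Rassf1a and of 11.52 to 12.66 with it and differed by -1.49 (SE 0.18, 2.81-fold lower, adjusted p = 0.000118). The phosphatidate phosphatases Lpin1 and Lpin2, which make diacylglycerol for triglyceride and also act as coactivators, differed by -1.05 (SE 0.21, adjusted p = 0.0108) and -0.55 (SE 0.12, adjusted p = 0.0172). Thrsp, Lpin1 and Lpin2 were the called members among 23 fatty acid and triglyceride synthesis genes, whose median was 0.12. Lpin1 and Lpin2 were not called in the 11-array fit (adjusted p = 0.0616 and 0.229).

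Of 27 fatty acid oxidation genes, Pdk4 was called higher and Angptl4 lower (median -0.089). Pdk4, the kinase that shuts off pyruvate dehydrogenase in fasting, differed by 1.14 (SE 0.20, adjusted p = 0.00479). Angptl4, a fasting-induced inhibitor of lipoprotein lipase, differed by -0.79 (SE 0.14, adjusted p = 0.0059; 0.0653 in the 11-array fit). None of 20 tested cholesterol synthesis genes was called, although 19 differences were positive with a median of 0.20 (limma, 1 at an unadjusted p under 0.05). Insig2, which retains the sterol sensor in the endoplasmic reticulum, was nearest at 0.65 (SE 0.18, adjusted p = 0.0702).

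Choline and bile acid enzymes were higher where they passed. Chka, the kinase that commits choline to phosphatidylcholine, had signals of 9.54 to 10.47 without Rassf1a (median 10.03) and of 7.48 to 8.59 with it (median 8.25). The states did not overlap, and the difference was 1.76 (SE 0.17, 3.38-fold, adjusted p = 1.31e-05). Selenoi, the ethanolamine phosphotransferase, differed by 0.51 (SE 0.12, adjusted p = 0.037) and was called in 7 of 16 fits that left out 1 array. No other of 18 choline pathway genes passed (median 0.045). Cyp8b1, the hydroxylase that sets the ratio of cholic to other bile acids, ran from 11.07 to 11.94 without Rassf1a and from 9.09 to 10.90 with it and differed by 1.30 (SE 0.19, adjusted p = 0.000814). Hsd3b7, the second enzyme of the pathway, differed by 0.46 (SE 0.09, adjusted p = 0.0123). These were 2 of 20 bile acid genes (median 0.073). Selenoi and Hsd3b7 were not called in the 11-array fit (adjusted p = 0.23 and 0.0948).

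Amino acid, NAD and glycogen genes gave a few calls each. The glycine cleavage genes Gldc and Amt were both higher, by 0.81 (SE 0.11, adjusted p = 0.000406) and 0.67 (SE 0.10, adjusted p = 0.000843), and in neither did the states overlap. The histidine ammonia-lyase Hal differed by 0.48 (SE 0.11, adjusted p = 0.0248) and was called in 9 of 16 fits that left out 1 array. These 3 were the called genes of 29 in amino acid metabolism and transport (median 0.018). Nmrk1, the nicotinamide riboside kinase, was lower by 0.93 in size (-0.93, SE 0.20, adjusted p = 0.0182), which with Nampt made 2 called of 17 NAD genes. Ppp1r3c, the subunit that targets protein phosphatase 1 to glycogen, was higher by 1.16 (SE 0.16, adjusted p = 0.000646; 10.17 to 11.23 against 8.77 to 9.98), the 1 called among 16 glycogen genes. Slc37a4, the glucose-6-phosphate transporter, differed by -0.39 (SE 0.09, adjusted p = 0.037) and was called in 4 of 16 such fits, the 1 called of 18 gluconeogenesis and glycolysis genes. In the 11-array fit Hal, Nmrk1 and Slc37a4 were not called (adjusted p = 0.205, 0.0971 and 0.22).

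Transport and detoxification genes also included members with large differences. Slc30a10, a manganese exporter, had signals of 10.33 to 11.01 without Rassf1a and of 8.86 to 9.76 with it and differed by 1.17 (SE 0.15, 2.24-fold, adjusted p = 0.000164). The zinc importer Slc39a4 differed by 0.41 (SE 0.10, adjusted p = 0.0461) and was called in 4 of 16 fits that left out 1 array and not in the 11-array fit (adjusted p = 0.205). Cyp2b10, the classical target of the nuclear receptor CAR, had a large called increase but also wide scatter, from 8.04 to 10.75 without Rassf1a and from 6.28 to 9.33 with it. Its difference was 1.88 (SE 0.46, 3.67-fold, adjusted p = 0.0379), and it was called in 4 of 16 fits that left out 1 array. Nr1i3, which encodes CAR, was lower (-0.54, SE 0.11, adjusted p = 0.014). No other of 21 xenobiotic genes passed, and Nr1i3 was not called in the 11-array fit (adjusted p = 0.352).

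Stress and hormone lists held a few called members each. Of 16 glucocorticoid-responsive genes 4 were called lower and none higher (median -0.35), beside 0.471% and 1.76% over all genes. They were Per1, Lpin1, Angptl4 and Tsc22d3, the last encoding the leucine zipper protein GILZ (-0.56, SE 0.12, adjusted p = 0.0185). Per1 is also counted above as a clock repressor, and Lpin1 and Angptl4 in the lipid lists. Of the 4 genes, only Per1 was called in the 11-array fit, at -1.31 (adjusted p = 0.0179). Sdf2l1, an endoplasmic reticulum chaperone partner, was higher by 0.97 (SE 0.17, adjusted p = 0.00597; 0.0631 in the 11-array fit) and Herpud1 lower among 19 unfolded protein response genes (median 0.21, 15 of 19 positive, 9 at an unadjusted p under 0.05). Among 17 heat shock genes the small chaperone Hspb1 was higher by 1.04 (SE 0.19, adjusted p = 0.00754) and the HSP70 partner Dnaja1 lower (-0.43, SE 0.09, adjusted p = 0.0161). The polo-like kinase Plk3 differed by -0.93 (SE 0.20, adjusted p = 0.0205) as the 1 called of 14 p53 targets. Dnaja1, Plk3 and Tsc22d3 were not called in the 11-array fit (adjusted p = 0.193, 0.0736 and 0.28). Wee1 was the 1 called of 18 cell cycle genes.

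The interferon-stimulated and acute phase lists held 1 called member each, beside 2.23% called over all genes tested. Ifi27l2a was the 1 called of 19 interferon-stimulated genes, at -0.73 (SE 0.19, adjusted p = 0.0471), and it was called in 4 of 16 fits that left out 1 array. Its mean without Rassf1a, 7.01, was below the filter levels, against which it was at least 1.31-fold lower. The transcription factor Cebpd was the 1 called of 24 acute phase genes, at -0.88 (SE 0.16, adjusted p = 0.00554), from low levels (6.01 to 7.08 without and 7.08 to 7.92 with Rassf1a). Against the filter levels Cebpd was at least 1.11-fold lower. None of 14 immediate early genes was called (limma, 4 at an unadjusted p under 0.05). Neither Ifi27l2a nor Cebpd was called in the 11-array fit (adjusted p = 0.146 and 0.0676).

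Hippo, RASSF and Tbk1 genes showed no call in limma's fit of the averaged effect. The counts were 0 of 22 in the core Hippo cascade (median 0.087), 0 of 19 YAP targets (median 0.082), 0 of 8 RASSF genes (median -0.015) and 0 of 13 for Tbk1 and its partners (median 0.061), beside 2.23% over all genes. At an unadjusted p under 0.05 they numbered 4, 0, 1 and 3, beside 15.3% over all genes. The kinase Stk4, which encodes MST1, came closest in the cascade at 0.33 (SE 0.10, adjusted p = 0.0876). Tbk1 itself ran from 7.73 to 8.57 without Rassf1a and from 8.0 to 9.51 with it and differed by -0.11 (SE 0.18, adjusted p = 0.805). Ikbke, its sister kinase, differed by 0.53 (SE 0.15, adjusted p = 0.0822). The array measures RNA and not kinase protein.

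Genes near the deleted loci were also examined. None of 28 tested neighbours within 20 genes on either side of Rassf1 was called, with a median of -0.021 (limma, 3 at an unadjusted p under 0.05). The photoreceptor transducin gene Gnat1, the nearest to the threshold among them, differed by -0.80 (SE 0.21, adjusted p = 0.0506). None of 23 neighbours of Sav1 was called (1 at an unadjusted p under 0.05). Of the large housekeeping sets, 0 of 59 cytosolic ribosomal, 0 of 34 complex I and 0 of 46 other respiratory chain genes passed in limma (2, 6 and 6 at an unadjusted p under 0.05). The mitochondrial ribosomal gene Mrps27 (0.53, SE 0.12, adjusted p = 0.0205) was 1 of 77, and the proteasome genes Psmd11 (0.38, SE 0.10, adjusted p = 0.0454) and Psmd14 (0.50, SE 0.10, adjusted p = 0.0154) were 2 of 37. Of 16 fits that left out 1 array, Psmd11 was called in 3 and Mrps27 in 14. None of these 3 was called in the 11-array fit (adjusted p = 0.141, 0.205 and 0.061). No pericentral gene of 17 was called (4 at an unadjusted p under 0.05), and of 15 periportal genes Hal and Gldc were. Among 13 endothelial markers Lyve1, the hyaluronan receptor of sinusoidal and lymphatic endothelium, had the largest difference, 1.04 (SE 0.27, adjusted p = 0.0562), which did not pass.

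Several of the clearest increases fell outside the metabolic and clock lists. Ndrg1, a stress-responsive gene of the N-myc downstream regulated family, had signals of 10.16 to 10.84 without Rassf1a (median 10.42) and of 8.64 to 9.64 with it (median 9.03). The 4 wildtype arrays stayed under 9 and the Sav1+/- arrays were somewhat higher, yet all 8 lay below the arrays without Rassf1a. The difference was 1.35 (SE 0.11, 2.55-fold, adjusted p = 3e-06), and no other of the 4 NDRG genes passed. Ddc, the decarboxylase that makes dopamine and serotonin, differed by 1.17 (SE 0.10, 2.25-fold, adjusted p = 8.53e-06), with 10.26 to 10.76 against 9.09 to 9.61.

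Denn2b, a guanine nucleotide exchange factor for Rab proteins, differed by 1.45 (SE 0.13, 2.74-fold, adjusted p = 1.04e-05), with 9.0 to 9.79 without Rassf1a and 7.62 to 8.41 with it. Mad2l2, a subunit of a translesion polymerase and a regulator of mitotic exit, differed by 1.08 (SE 0.12, adjusted p = 7.59e-05). Abtb2, an ankyrin repeat and BTB protein, differed by 1.08 (SE 0.11, adjusted p = 3.36e-05). The RFX family transcription factor Rfx4 differed by 1.27 (SE 0.15, adjusted p = 0.000121) and the zinc-binding protein Ypel2 by 1.10 (SE 0.16, adjusted p = 0.000641). In all 5 genes the states did not overlap. Ypel2 was not called in the 11-array fit (1.03, adjusted p = 0.0593).

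Decreases outside the lists were fewer. Rnf213, a very large ubiquitin ligase linked to moyamoya disease, had signals of 7.69 to 8.55 without Rassf1a and of 8.97 to 10.43 with it and differed by -1.49 (SE 0.18, 2.81-fold lower, adjusted p = 0.000114). Upp2, a uridine phosphorylase of liver, differed by -1.11 (SE 0.18, adjusted p = 0.00201), and Mknk2, a kinase of the translation factor eIF4E, by -0.84 (SE 0.14, adjusted p = 0.00241). None of these 3 had overlapping states.

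The 46 called genes with differences above 1 are completed by 12 genes, chosen after their values were seen, and by those described above. Higher were Dnaic1, an axonemal dynein intermediate chain (1.89, SE 0.43, adjusted p = 0.0238), Gask1a (1.83, SE 0.27, adjusted p = 0.000856), the dicarboxylate transporter Slc13a2 (1.62, SE 0.29, adjusted p = 0.00597) and the retinol dehydrogenase Dhrs9 (1.6, SE 0.29, adjusted p = 0.00607). Dnaic1, Slc13a2 and Dhrs9 were below the filter level with Rassf1a, and against it they were at least 1.21-fold, 1.43-fold and 1.41-fold higher. Dnaic1 was called in 10 of 16 fits that left out 1 array. The planar polarity cadherin Celsr1, the atypical E2F factor E2f8, the sulfotransferase Sult5a1, the Arf regulator Asap2, the ubiquitin ligase Dtx4 and Tmie were higher by 1.02 (Dtx4) to 1.26 (Celsr1). Tmie and Asap2 were also below the filter level with Rassf1a, and against it they were at least 1.59-fold and 1.8-fold higher. Lower were Nrg4, a growth factor of the neuregulin family (-1.38, SE 0.29, adjusted p = 0.0154), and Mfsd2a, the lysophosphatidylcholine transporter (-1.13, SE 0.21, adjusted p = 0.00872). Of these 12, Asap2 and Dtx4 had no overlap between the states, and Dnaic1, Dhrs9, E2f8 and Mfsd2a were not called in the 11-array fit.

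The averaged effect is built from 2 differences that share no arrays, Rassf1a-/- against wildtype (2 Sav1 copies) and Rassf1a-/- Sav1+/- against Sav1+/- (1 Sav1 copy). Taken alone in the 16-array fit, they called 92 genes (0.7%, 57 or 0.433% higher and 35 or 0.266% lower) and 110 genes (0.836%, 88 or 0.669% higher and 22 or 0.167% lower). At an unadjusted p under 0.05 they gave 1372 (10.4%) and 1974 (15%). In the 11-array fit the counts were 59 and 0. That fit keeps fewer arrays with 1 Sav1 copy than with 2, so these 2 counts are not comparable. Of the 293 genes of the average, 291 had the same sign in both, and the exceptions were Alpl and Ifi27l2a. Genes called in both numbered 34, which is 37.0% of the 92 and 30.9% of the 110, and all 34 had the same sign. Of the 92 genes, 84 (91.3%) kept their sign with 1 Sav1 copy, and of the 110 genes, 95 (86.4%) kept it with 2 copies, while 56.2% of all genes had the same sign in both. In fits of 8 arrays each, 190 genes (1.44%) were called with 2 copies and 1 gene (0.0076%), Arntl, with 1 copy. Of those 190 genes, 167 (87.9%) had the same sign in the other 8 arrays. Averaging added 162 genes that neither difference called alone.

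**Figure D5:**
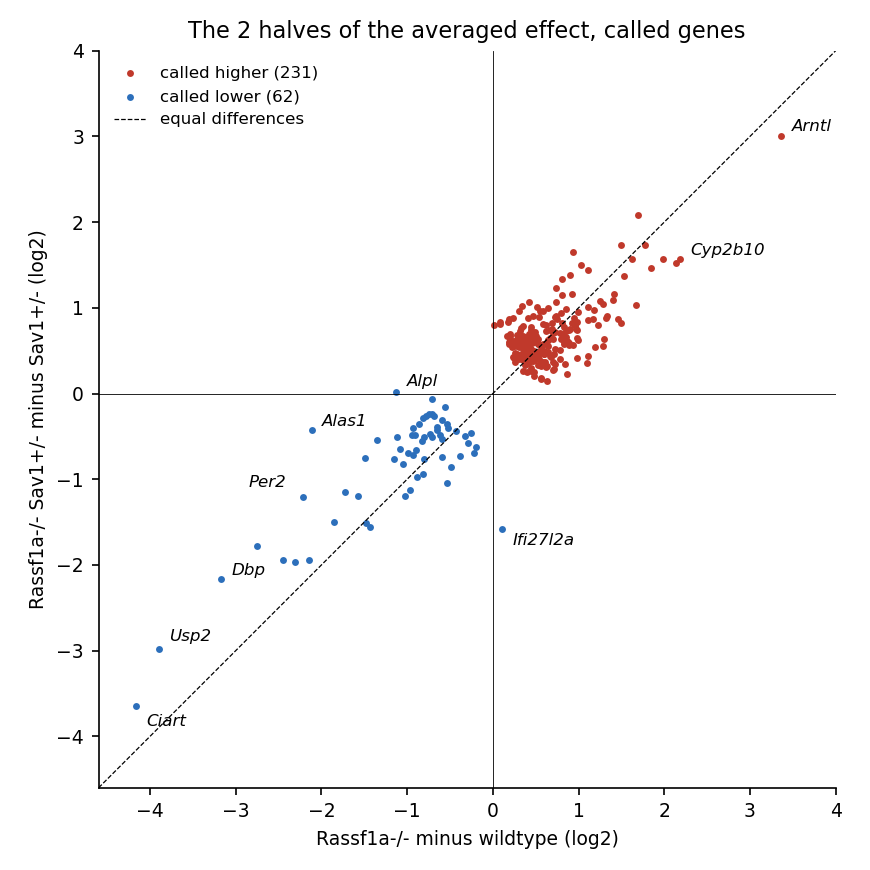
Difference between Rassf1a-/- and wildtype (x axis, log2) against that between Rassf1a-/- Sav1+/- and Sav1+/- (y axis, log2) for the 293 called genes, with a dashed line at equal differences. The genes share a sign on both axes except Alpl, just above 0 with 1 Sav1 copy, and Ifi27l2a, which is lower only on the y axis.

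Among the called lower genes, 46 of 62 had the larger difference with 2 Sav1 copies (median size 0.84 against 0.63). Among the called higher genes, 120 of 231 did (0.56 against 0.60). Usp2 differed by -3.90 with 2 copies and -2.98 with 1, Per2 by -2.22 and -1.21, and Dbp by -3.17 and -2.17. Arntl differed by 3.37 and 3.01, Tubb2a by 1.99 and 1.57, and Cyp8b1 by 0.94 and 1.65.

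Tested directly, the Rassf1a effect differed between the Sav1 states for 0 of 13152 genes (0%, limma, smallest adjusted p = 0.316, 1236 genes or 9.4% at an unadjusted p under 0.05). Among the 293 genes 42 (14.3%) had an unadjusted p under 0.05, and the 95% interval of the difference extended a median of 0.49 to either side, so that differences of that size between the states could not be told from 0 in most genes. Alpl, the alkaline phosphatase of liver and bone, had a mean of 9.76 in wildtype and 8.63 in Rassf1a-/- samples. With 1 Sav1 copy the means were 8.77 with and 8.79 without Rassf1a. Its averaged effect was not called in the 11-array fit (adjusted p = 0.0954). Wildtype alone was high, and the test of the difference gave 1.15 (SE 0.23, adjusted p = 0.316). Without array 3 of Rassf1a-/- Sav1+/- Alpl was called (1.32, adjusted p = 0.0338). Lsm1, a component of the decapping complex, had the second smallest p, with a value of -1.0 (SE 0.20, adjusted p = 0.316). Ifi27l2a differed by 0.11 with 2 Sav1 copies and by -1.58 with 1, a difference of -1.69 (SE 0.37, adjusted p = 0.316).

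The averaged Sav1 effect, the other main effect of the same 16 arrays, called 3 genes (0.0228%), all lower with 1 Sav1 copy: Sav1, the autophagy protease Atg4d (-0.53, SE 0.09, adjusted p = 0.048) and the Wnt ligand Wnt5b (-0.83, SE 0.13, adjusted p = 0.048). At an unadjusted p under 0.05 it gave 1949 genes (14.8%) and the averaged Rassf1a effect 2018 (15.3%). No gene was called in both. The averaged Rassf1a effect on Atg4d was -0.30 (SE 0.09, adjusted p = 0.0771), which did not pass.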

How the data were processed

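The deposited values are log2 signals, 1 per probe set and array. The submitters' processing notes name Affymetrix Expression Console, and its version and settings are not given in the sources here. The number of arrays limits precision. Of 35556 probe sets, 23410 have a gene in the platform annotation and 1621 of these several, which leaves 21789 naming 1 gene, 21698 of them matched to RefSeq (GRCm38.p6) by gene ID. Probe sets at or above the 40th percentile of their array in 4 or more arrays were tested (14269), and the brightest was taken for each gene.

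The 4 genotype means were fitted with limma 3.58.1 (R 4.3.3; lmFit and eBayes, 12 residual degrees of freedom, two-sided), and p-values were adjusted over all genes tested. Errors after ± are SD and those marked SE come from limma. Named genes are up to 15 in each direction by size among called genes without overlap, called list members, the nearest uncalled members, called genes above 1, and Rassf1, Sav1, Tbk1 and the beta tubulins; names that are model identifiers (8 called) are counted only. Members and gene lists were chosen with earlier results of these data known. The clock score leaves out Npas2, Cry1 and Bhlhe41, which were not tested. The pipeline was tested on simulated data. Alternatives covered the filter, choice of probe set, normalization, moderation, array weights, covariates and omission of arrays.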

Additional observations from a re-analysis of the deposited data

Results flagged for a closer look

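Of 404 groups of 4 arrays examined for the genes named in the report, 20 (4.95%) held an array far from the other 3, where chance gives about 1 in 20 (5%). Sav1+/- replicate 1 was flagged 4 times. It was low for Tubb2b (6.66, others 7.15 to 7.25), Slc30a10 (8.96, others 9.71 to 9.76), Clock (9.36, others 10.37 to 10.55) and Pdss2 (7.76, others 8.22 to 8.31), all log2 signals. Among clock and output genes, Clock stood at 9.86 on wildtype replicate 2, Noct at 10.36 on wildtype replicate 3, Rora at 11.29 on wildtype replicate 4 and Cry2 at 10.17 on Sav1+/- replicate 2, each above the others of its genotype. Bhlhe40 at 10.66 on Rassf1a-/- replicate 4 and Nampt at 10.14 on Rassf1a-/- Sav1+/- replicate 4 were high as well. In Rassf1a-/-, replicate 2 was low for Upp2 (10.86) and Nrg4 (6.88), and replicate 1 was high for Asap2 (8.49). In Rassf1a-/- Sav1+/-, replicate 1 was high for Plk3 (10.01) and low for Tmie (7.25), replicate 2 was high for Selenoi (11.67) and Psmd11 (11.5), replicate 3 was low for Slc39a4 (11.14) and replicate 4 was high for Lsm1 (7.39). Gask1a was high on wildtype replicate 2 (7.67).

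Probe sets that the comparisons left out were fitted together with all 35556. Among 1621 naming several genes, 7 passed for the averaged Rassf1a effect (0.432%, 4 higher and 3 lower). Among 12146 with no gene listed, 29 passed (0.239%, 13 higher and 16 lower).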

How the results depend on the processing

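For the averaged Rassf1a effect, called genes numbered 444 under a stricter filter at the 60th percentile, 800 with array weights, 80 in the 11-array fit (arrays of low Y-linked signal) and 0 with the clock score as covariate. Leaving out 1 array at a time gave 192 (without wildtype replicate 3 or without Rassf1a-/- replicate 1) to 572 (without Sav1+/- replicate 2). Quantile normalization gave 345, of which 230 were higher and 115 lower, so that the higher share fell to 66.7% from 78.8%. No filter gave 212, averaged probe sets 290 and the Y-linked mean as covariate 356. All 293 genes kept their direction under every alternative that tested them, except 36 with the clock score as covariate.

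With 2 Sav1 copies, in place of 92 there were 898 with array weights, 146 with the Y-linked mean, 59 in the 11-array fit, 0 with the clock score (569 at an unadjusted p under 0.05, limma) and 54 to 128 on leaving out 1 array. With 1 Sav1 copy, in place of 110 there were 53 without a filter, 185 with the stricter filter, 66 with median centring, 173 with trend and robust moderation, 55 with array weights, 173 with the Y-linked mean, 0 in the 11-array fit (1144 unadjusted), 0 with the clock score (275 unadjusted) and 27 (without Rassf1a-/- Sav1+/- replicate 2) to 479 (without Sav1+/- replicate 2). The difference between the Sav1 states gave 0 genes throughout except 1, Alpl, without Rassf1a-/- Sav1+/- replicate 3.

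With the clock score as covariate the sign turned for Wee1 (0.26), Dbp (0.855), Nr1d2 (0.236), Lpin2 (0.1), Nmrk1 (0.48), Nr1i3 (0.0697), Tbk1 (0.0898), Hlf (0.182), Cry2 (0.28) and Nrg4 (0.216), and for Slc30a10 (-0.102), Nfil3 (-0.922), Pdss2 (-0.0209), Selenoi (-0.236), Gldc (-0.0116), Cyp2b10 (-0.991), Psmd11 (-0.0976), Rora (-0.0697), Tuba1a (-0.045), Insig2 (-0.217) and Asap2 (-0.0293). Without Sav1+/- replicate 2 it turned for Rassf1 (0.00391) and Tbk1 (0.0488), whose ranges over the fits that leave out 1 array began at -0.189 and -0.202. The cause of these changes was not tested; the clock score shares genes with the outcome. No paired analysis was possible because no replicate numbers link samples across genotypes.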
